A study of Arabidopsis thaliana with 6 samples.

Results

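The genes described here encode proteins of the large (60S) subunit of the cytosolic ribosome of Arabidopsis thaliana: the stalk proteins P0, P1 and P2 and the proteins L3 to L24. They were taken from the table of RNA immunoprecipitation sequencing (RIP-seq) values by a fixed list of gene identifiers, 60 genes of the 33331 listed, and the rule used no measured value. The 60 genes encode 25 proteins, and 24 of these had 2 to 4 paralogues in the list, so that the same protein is made from several genes. A family below means the listed genes of 1 protein. Further genes of P2, L7, L8, L9, L11, L13, L18, L18a, L19 and L23 were in the table. They were read with the other 60S genes and enter no family share or sum. RIP-seq measures the RNA that comes down with a protein, here AtGRP7, a glycine-rich RNA-binding protein of the circadian clock system. All plants carried AtGRP7 fused to GFP under the AtGRP7 promoter (AtGRP7::AtGRP7-GFP) in the grp7-1 T-DNA insertion mutant, so that AtGRP7 was supplied by the fusion protein, itself driven by a clock-regulated promoter. They were raised for 16 days on light-dark cycles with 12 h of light and then kept in continuous light (LL), in which aerial tissue of bulked plants was fixed with 1% formaldehyde for 15 min. The LL24 group was fixed after 24 h in LL, at subjective dawn, and the LL36 group after 36 h, at subjective dusk, with 3 biological replicates each. RNA was recovered from GFP-Trap beads and sequenced without poly(A) selection. No input RNA was used here, so a level below is a level in the precipitate, and more of a transcript in the tissue and more of it bound to AtGRP7 cannot be told apart.

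Ribosomes read mRNA and link amino acids into protein, and the large subunit holds the centre where the peptide bond forms, the tunnel through which the new chain leaves and a flexible stalk that recruits the GTP-hydrolysing translation factors. A ribosome needs its proteins in fixed proportions, and plants make most of them from small families of related genes rather than from single genes. Mutants in single paralogues are viable in several families and lethal in others, and the piggyback mutants in L10a (PGY1) and L9 (PGY2) alter leaf shape.

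The listed values were TPM, the number of transcripts of a gene per 1000000 transcripts, a measure corrected for transcript length that holds no read depth, so levels of different genes can be set side by side but no counting interval can be given. The listed genes summed to 9.6% to 16.57% of 1000000 in the 6 libraries, since organelle and ribosomal RNA genes had been removed, and LL36 replicate 3 had the lowest sum. Libraries were put on a common scale by a trimmed mean of log ratios over those 789 genes whose TPM averaged at least 5 (scaled TPM), with factors from 0.615 for LL36 replicate 3 to 1.26 for LL24 replicate 3. The 4 leaf markers checked (CAB1, RBCS1A, RBCS3B and RCA) summed to between 4335 and 5108 TPM at LL24 and between 2112 and 4057 at LL36, and the 3 root markers to between 0.603 and 2.23 TPM with RHS19 at 0 in all libraries; the tissue was labelled as aerial. The leaf marker sums of the time points did not overlap. CAB1 alone did overlap, with 1889 to 2482 TPM at LL24 and 1129 to 2209 at LL36, whereas RBCS1A, RBCS3B and RCA were lower in every LL36 library. The part of this shift in the results was not tested. The AtGRP7 transcript itself had at most 3.53 scaled TPM at LL24 and at least 207 at LL36, and the part of the amount of bait in the differences below was not tested.

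Whether 2 paralogues can be told apart depends on how far their transcripts differ over a read, of 100 nt before trimming. Shared stretches of less than 100 nt, where reads shortened by trimming may not be told apart, were not searched. Nor were the AtRTD transcripts to which the authors mapped. Every stretch of 100 nt in the RefSeq transcripts of the 60 genes (TAIR10.1) was looked up in all other transcripts, and in 47 of the 60 genes none was shared with another gene. Within families only 2 pairs shared any, the L11 pair AT2G42740 and AT3G58700 with at most 2.14% of stretches, and the L9 pair AT1G33120 and AT1G33140 with 50.8% and 51.7%. The L9 coding sequences, of 585 bases each, differed at 5 positions, all inside bases 441 to 540 of the coding sequence, which are shown with the differing bases in capitals because the division of L9 reads between its genes rests on them and on the untranslated ends.
AT1G33120: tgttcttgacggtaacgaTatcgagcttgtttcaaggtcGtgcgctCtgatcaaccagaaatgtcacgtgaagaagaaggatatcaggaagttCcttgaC
AT1G33140: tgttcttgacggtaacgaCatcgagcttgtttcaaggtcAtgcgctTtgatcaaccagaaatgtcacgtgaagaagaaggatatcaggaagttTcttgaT
The L9 values below are thus an estimate of how shared reads divide. By contrast, the P1 genes, which encode a stalk protein with a conserved acidic end, differed at 9 of the last 48 coding bases. These bases, from the RefSeq coding sequences up to the stop codon, are shown with capitals at the positions that are not the same in all 3 genes, because the P1 genes changed places in the order of levels below.
AT1G01100: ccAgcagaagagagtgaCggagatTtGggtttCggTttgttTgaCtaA
AT5G47700: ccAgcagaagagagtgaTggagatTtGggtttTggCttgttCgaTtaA
AT4G00810: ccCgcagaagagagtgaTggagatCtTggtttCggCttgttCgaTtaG
In 6 genes 11% or more of the stretches were shared with a gene that overlaps them on the opposite strand. The library kit was not stated to keep the strand, so reads from the shared stretches of these gene pairs may not be told apart. The 6 genes were AT1G18540 (L6, 35.9%), AT4G36130 (L8, 17.3%) and AT5G27850 (L18, 11%) among the tested genes, and AT4G13170 (L13a, 47.6%), AT2G40010 (P0, 33.8%) and AT1G74060 (L6, 31.6%) among the genes of low level.

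Plant ribosomal protein genes are known for 2 short promoter motifs, the telo box and the site II element. Windows from 250 bases before to 50 after the annotated gene start were searched on both strands for AAACCCTA (telo box) and for TGGGCC or TGGGCT (site II), where a run of TGGGCCCA counts on each strand. A telo box was found in 30 of the 60 genes (50%) against 6.17% of the windows of 26702 protein-coding genes in the table. Site II was found in 53 (88.3%) against 22%, and both motifs in 27 (45%) against 2.26%. In the 69 other cytosolic 60S genes of the table the telo box, site II and both stood in 44.9%, 76.8% and 37.7%. In the 97 cytosolic 40S genes they stood in 49.5%, 68% and 38.1%, so the motifs are not particular to the 60 genes. A telo box stood in 7 and site II in 11 of the 13 genes under a mean TPM of 5, and in 23 and 42 of the other 47. The 180 bases before the gene start are shown, with both motifs in capitals, for the gene of highest level (AT4G27090, L14, chr4:13595253-13595432, minus strand), the pair of genes with the largest differences between time points (AT1G66580, L10, chr1:24838910-24839089, plus strand, and AT5G47700, P1, chr5:19328987-19329166, minus strand) and the gene with the lowest difference (AT1G08360, L10a, chr1:2635759-2635938, plus strand).
AT4G27090: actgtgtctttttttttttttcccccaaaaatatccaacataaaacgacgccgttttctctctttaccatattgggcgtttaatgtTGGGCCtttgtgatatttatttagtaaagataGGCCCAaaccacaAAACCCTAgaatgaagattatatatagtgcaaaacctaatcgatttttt
AT1G66580: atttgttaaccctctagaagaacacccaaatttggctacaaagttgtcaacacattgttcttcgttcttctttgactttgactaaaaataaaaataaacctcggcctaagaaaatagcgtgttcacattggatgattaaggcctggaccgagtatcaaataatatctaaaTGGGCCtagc
AT5G47700: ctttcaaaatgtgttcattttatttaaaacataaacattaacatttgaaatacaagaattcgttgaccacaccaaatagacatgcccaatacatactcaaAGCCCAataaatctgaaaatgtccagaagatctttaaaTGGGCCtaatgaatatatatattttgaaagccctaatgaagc
AT1G08360: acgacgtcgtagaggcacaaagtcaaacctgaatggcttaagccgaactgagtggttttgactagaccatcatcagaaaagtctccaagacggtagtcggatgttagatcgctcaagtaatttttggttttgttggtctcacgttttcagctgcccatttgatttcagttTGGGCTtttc
Each of these 4 stretches holds at least 1 site II match, also that of AT1G08360. A match is a description of the sequence and was not tied to any factor.

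All 60 genes were above 0 in every library, and their mean TPM spanned 211.8-fold, from 0.284 for AT1G61580 (L3) to 60 for AT4G27090 (L14). Of the 60, 47 reached a mean of 5 TPM and entered the test between time points. The remaining 13 lay between 0.284 and 4.33 TPM, and none of the 25 proteins was represented by such genes alone. Every protein thus had at least 1 gene among the 789 genes of higher level.

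The highest levels were in the stalk and in L14. AT4G27090, which encodes L14, had 56.4, 55 and 60.7 scaled TPM at LL24 and 63.5, 58.1 and 55.7 at LL36. AT2G27720, which encodes the stalk protein P2, followed with 40.9, 50.3 and 43.1 at LL24 and 54.1, 55.8 and 58.1 at LL36. The leading P0 gene AT3G09200, which encodes the protein that anchors P1 and P2 to the subunit, had 32.7, 34 and 33 at LL24 and 32.4, 36.1 and 34.6 at LL36. Between L14 and P2 the libraries of LL24 did not overlap, whereas those of LL36 did, and P2 and P0 were apart at both times. P0 was close to AT1G67430, which encodes L17, a protein that lines the exit tunnel, with 31.5, 35.8 and 31.3 scaled TPM at LL24 and 32.9, 35.5 and 34.7 at LL36.

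**Figure D1:**
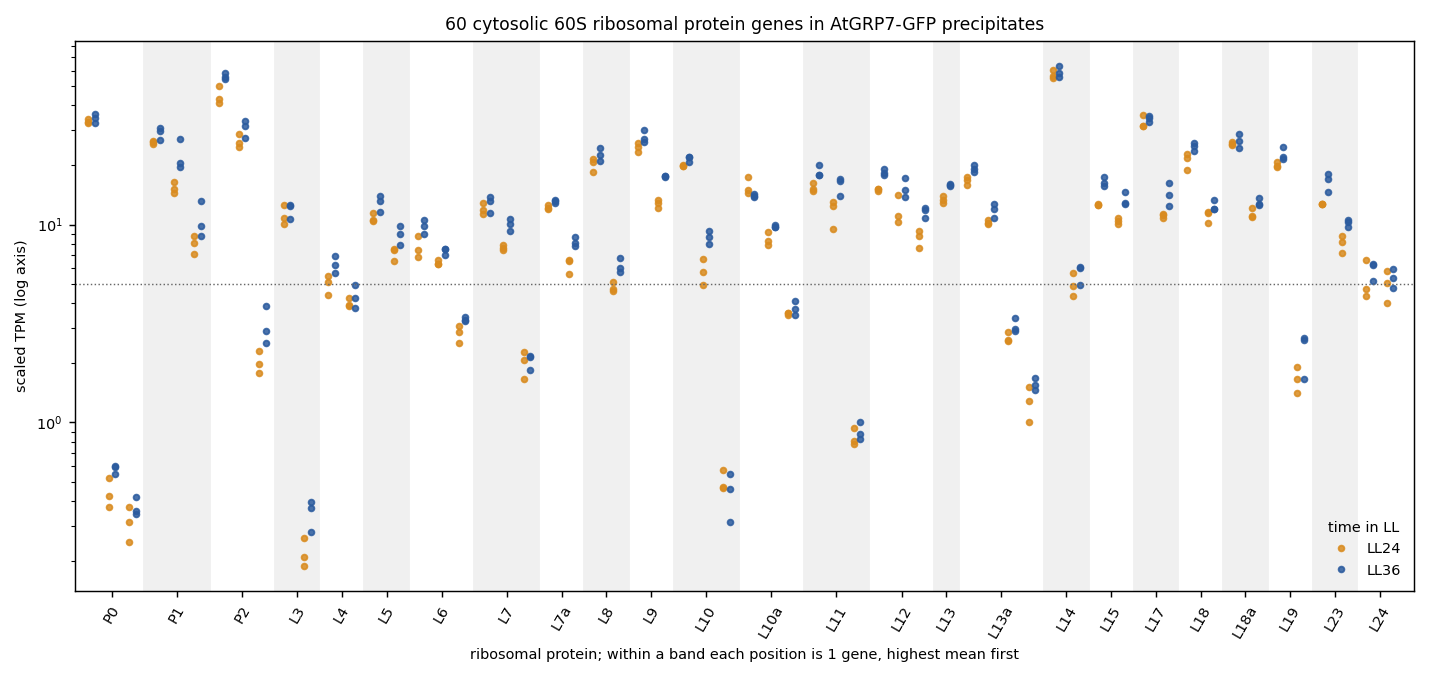
Scaled TPM (log axis) of the 60 genes in the 3 LL24 and 3 LL36 libraries, grouped by protein with the gene of highest mean first; each point is 1 library and the dotted line marks 5 TPM. Levels run from below 0.3 to above 60, and in P0, L3, L14 and L19 the first gene stands far above the next.

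The families differed in how far a single gene carried the protein. In L3, a protein next to the peptide-forming centre, AT1G43170 held 98.1% ± 0.0948 (SD, n = 3, as for all shares here) of the family's summed scaled TPM at LL24, and at LL36 it held 97.1% ± 0.715. In P0 the share of AT3G09200 was 97.8% ± 0.27 and 97.3% ± 0.17. In L19, which takes part in a bridge to the small subunit, AT1G02780 held 92.4% ± 0.897 and 90.8% ± 1.88, and in L14 AT4G27090 held 92% ± 0.721 and 91.2% ± 0.619. Among the listed genes, these 4 families were each carried by 1 gene, with the leading gene 10.7 to 65.9 times the next. A further L19 gene, AT4G02230, was in the table and is not in these shares. The other extreme was L24, a bridge protein of the subunit interface, where AT2G36620 (RPL24A) and AT3G53020 (STV1) were nearly level. AT2G36620 had 4.7, 4.36 and 6.6 scaled TPM at LL24 and 6.35, 6.24 and 5.2 at LL36, and AT3G53020 had 5.08, 4 and 5.83 and then 5.95, 5.4 and 4.8. Their order was reversed in LL24 replicate 1 alone, and their ranges overlapped at both times.

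The leading gene was the same in all 6 libraries in 22 of the 24 families with paralogues, and the exceptions were L24 and P1. In P1, AT1G01100 had 26.1, 25.5 and 26.5 scaled TPM at LL24 and 29.7, 30.7 and 26.8 at LL36. AT5G47700 had 16.4, 14.4 and 15.1 at LL24 and 19.4, 20.4 and 27 at LL36. It passed AT1G01100 narrowly in LL36 replicate 3, the library with the lowest listed sum, and lay below it in the other 5 libraries.

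The comparison of LL36 with LL24 asked whether the transcripts in the AtGRP7 precipitate differed between subjective dusk and subjective dawn. Of the 47 tested genes 18 were higher at LL36 and none was lower (limma with a variance trend on log2(scaled TPM + 1), two-sided, Benjamini-Hochberg adjusted over the 789 genes, threshold 0.05), beside 19.9% of all tested genes called higher and 24.1% called lower. At an unadjusted p under 0.05 there were 29 of the 47, none of them lower, beside 411 of all 789 tested genes in either direction. The 18 made up 38.3% of the tested members. The scaled TPM of all LL36 libraries lay above all LL24 libraries in 33 of the 47 genes, beside 27.9% of all tested genes. The reverse held in 1 of the 47, beside 232 of all 789. The differences were small: among the 18 called genes the log2 difference ran from 0.23 to 0.51, that is 1.17-fold to 1.42-fold on this scale, which understates the change of low genes. The median over the 47 genes was 0.22 against 0.02 over all tested genes. Of the 47, 46 were positive, beside 410 of all 789. This direction rested on the scaling. With TPM as deposited the median was -0.07 and none of the 47 passed, beside 3.169% of all tested genes called higher. The median of all tested genes was then -0.26, so that the members stood 0.19 above all genes, close to the 0.20 under the trimmed mean. When ribosomal protein genes, 165 of the 789, were left out of the scaling, 36 of the 47 were called and the medians were 0.33 and 0.12, and the calls over all genes moved from 157 higher and 190 lower to 243 higher and 153 lower. Leaving out LL24 replicate 2 left 6 of the 47 called, beside 13.56% of all 804 genes then tested called higher, a share near that of the members. Leaving out LL36 replicate 1 left 11, beside 14.05%. Without any other single library 12 to 15 were called, beside 14.87% to 16.78%.

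**Figure D2:**
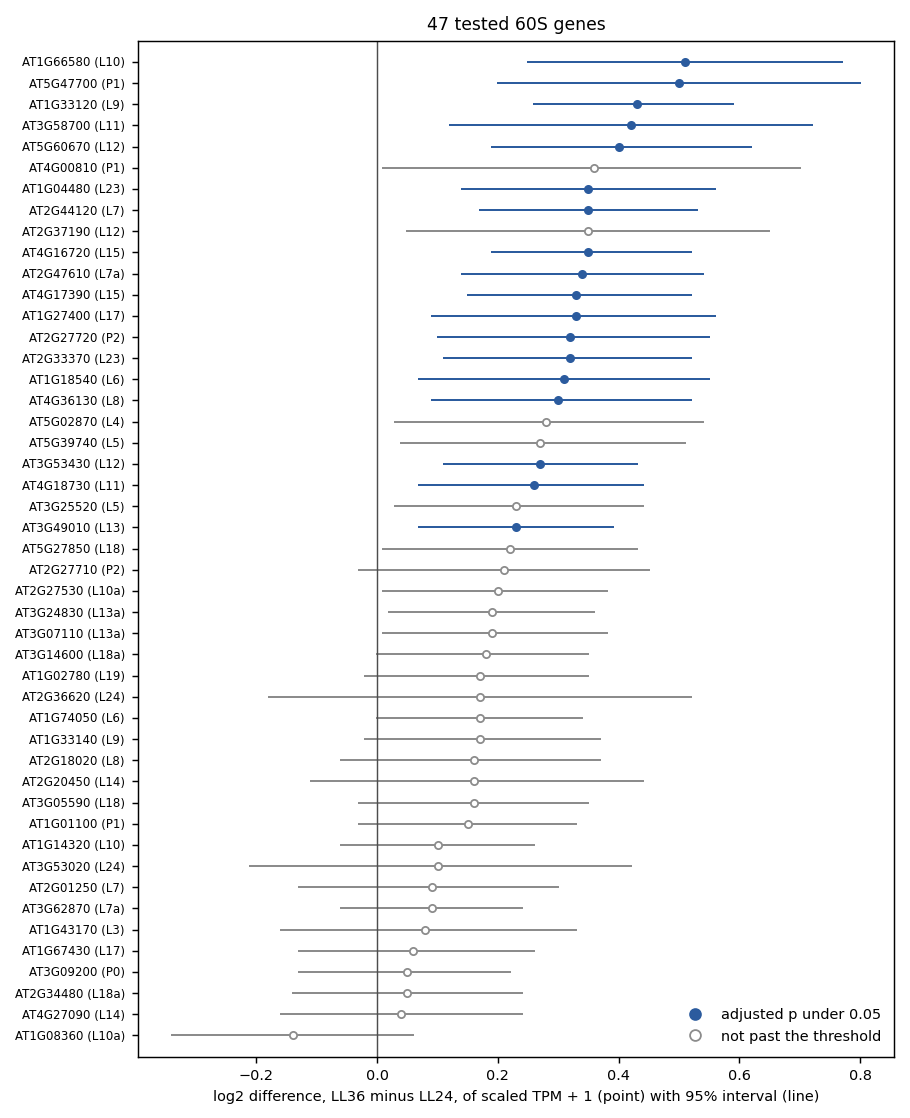
Log2 difference of LL36 minus LL24 in scaled TPM + 1 (point) with its 95% interval (line) for each of the 47 tested genes; filled points passed an adjusted p of 0.05 in limma. All points but that of AT1G08360 lie above 0 under trimmed-mean scaling, with the 18 called genes between 0.23 and 0.51, whereas with TPM as deposited the median falls to -0.07.

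Among the 9 stalk genes 6 were tested and 2 were called, 1 each for P1 and P2. AT5G47700 (P1), with the values above, rose by 0.50 (log2, SE 0.13, adjusted p = 0.0166), and its groups did not overlap. Without LL24 replicate 2 its adjusted p was 0.0643. AT2G27720 (P2) rose by 0.32 (SE 0.10, adjusted p = 0.031), with all LL36 libraries above those of LL24. P0 was nearly flat, at 0.05 with a 95% interval from -0.13 to 0.22 for AT3G09200, and the leading P1 gene AT1G01100 had 0.15 with an interval from -0.03 to 0.33.

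The largest difference was that of AT1G66580 (SAG24), 1 of the genes for L10, a protein that joins the subunit late in its assembly. It had 6.72, 4.97 and 5.78 scaled TPM at LL24 and 8.69, 9.25 and 8.01 at LL36, which is 0.51 higher in log2 (SE 0.11, adjusted p = 0.00967). The groups stood clearly apart. The leading L10 gene AT1G14320 (SAC52) had 20.1, 19.8 and 19.8 at LL24 and 21.8, 20.6 and 21.9 at LL36, a log2 difference of 0.10 with a 95% interval from -0.06 to 0.26. Its groups did not overlap either, but the gap was small.

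AT1G33120, the lesser L9 gene, had the smallest adjusted p of the 47 genes. It had 12.9, 12.1 and 13.3 scaled TPM at LL24 and 17.3, 17.6 and 17.7 at LL36, a rise of 0.43 in log2 (SE 0.07, adjusted p = 0.00224). The L9 genes share reads, as the sequences above show, and the sum of the pair does not depend on how they are divided. It was 38.7, 36.8 and 36.5 scaled TPM at LL24 and 43.5, 44.7 and 47.7 at LL36, without overlap. In L11, a protein that binds 5S ribosomal RNA with L5, both tested genes of the list rose. AT3G58700 had 13, 9.5 and 12.4 at LL24 and 16.5, 14 and 17 at LL36, a rise of 0.42 in log2 (SE 0.13, adjusted p = 0.0325). AT4G18730 (RPL16B by an older name) rose by 0.26 (adjusted p = 0.0339). Both calls depended on single libraries. AT3G58700 lost its call without LL24 replicate 2, which was low (adjusted p = 0.0824), LL36 replicate 1 or LL36 replicate 3, and AT4G18730 lost its call without any single one of the 6 libraries (adjusted p from 0.0529 to 0.0939).

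L12, a protein at the base of the stalk, had its lesser gene AT5G60670 at 8.78, 7.59 and 9.27 scaled TPM at LL24 and 11.9, 10.8 and 12.1 at LL36, a rise of 0.40 in log2 (SE 0.09, adjusted p = 0.0116). The leading gene AT3G53430 rose by 0.27 (adjusted p = 0.0156). The remaining L12 gene, AT2G37190, had 11, 10.3 and 14.1 at LL24 and 17.1, 14.9 and 13.7 at LL36, and with overlapping groups its difference of 0.35 was not called (adjusted p = 0.0622). In L15 and L23, which have 2 genes each in the list, both listed genes rose. A further L23 gene, AT3G04400, was in the table but not in the list. AT4G16720 (L15) had 12.6, 12.6 and 12.7 at LL24 and 16.3, 17.5 and 15.6 at LL36, a rise of 0.35 in log2 (SE 0.07, adjusted p = 0.00664), and its paralogue AT4G17390 rose by 0.33 (adjusted p = 0.0133). For L23, AT1G04480 rose by 0.35 (adjusted p = 0.017) and AT2G33370 by 0.32 (adjusted p = 0.0248). The remaining called genes rose by 0.23 to 0.35. They were AT2G44120 (L7, 0.35), AT2G47610 (L7a, 0.34), AT1G27400 (L17, 0.33), AT1G18540 (L6, 0.31), AT4G36130 (L8, 0.30) and AT3G49010 (L13, 0.23), the last being the only L13 gene in the set. Of these, AT1G18540 and AT4G36130 overlap genes on the opposite strand. Of all 18 called genes, AT2G44120, AT1G33120 and AT1G66580 passed in 16 of 17 alternative settings, in all but TPM as deposited. AT2G27720, AT4G18730, AT3G49010 and AT1G27400 passed in 9 of the 17 and AT1G18540 and AT4G36130 in 10, and each of these 6 lost its call when single libraries of either time point were left out.

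At the lower end AT1G08360, the leading gene for L10a, was the only gene with a negative difference. L10a forms the mobile stalk on the side of the subunit from which spent transfer RNA leaves. AT1G08360 had 17.3, 14.5 and 15 scaled TPM at LL24 and 14.3, 13.8 and 14 at LL36, a log2 difference of -0.14 with a 95% interval from -0.34 to 0.06 (adjusted p = 0.206). The groups did not overlap, yet the change was not called. AT4G27090 (L14), AT3G09200 (P0), AT2G34480 (L18a) and AT1G67430 (L17) followed with 0.04 to 0.06, and none of the 4 was called. These 4 are among the 7 genes of highest level.

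The rest of the cytosolic ribosome was read from the same fit. Of the other 60S genes 52 of 69 were tested, 10 were higher (19.2%) and 1 lower at LL36, and the median log2 difference was 0.14. Of the 40S genes 66 of 97 were tested, 16 were higher (24.2%) and none lower, with a median of 0.16. Both shares lie near the 19.9% of all tested genes called higher. Differences were positive in 45 of the 52 other 60S genes and in 59 of the 66 40S genes. The 624 tested genes of no ribosomal list had a median of -0.08 and spread far wider, from -3.29 to 5.82, against -0.14 to 0.51 for the 47. As a share of the listed TPM without the 10 genes of highest level, the 60 genes took 2.89%, 2.9% and 3.07% at LL24 and 3.66%, 3.78% and 3.6% at LL36. The groups did not overlap, whereas as a share of all listed TPM they did, at 0.629%, 0.483% and 0.567% against 0.699%, 0.67% and 0.537%.

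**Figure D3:**
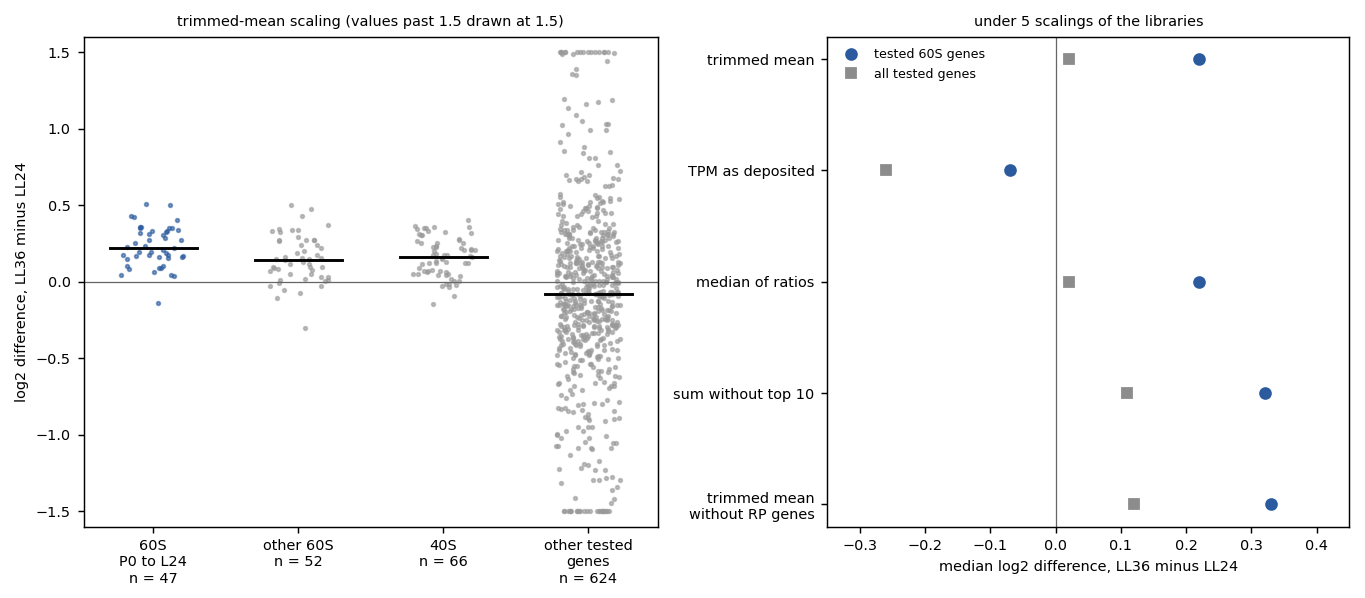
Left, log2 differences of LL36 minus LL24 for each tested gene under trimmed-mean scaling by list, with the median as a black bar (0.22 for the 47 genes described, 0.14 for other 60S, 0.16 for 40S and -0.08 for the rest). Right, medians of the 47 genes (circles) and of all 789 tested genes (squares) under 5 scalings; both fall below 0 with TPM as deposited, and the distance between them stays between 0.19 and 0.21.

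A ratio of 2 paralogues within a library does not depend on how libraries are scaled. There were 24 such pairs of tested genes in 20 families, each taken as the gene of higher mean over the other. In 22 pairs the same gene was the higher in all 6 libraries. In 8 pairs the ratios at LL24 and LL36 did not overlap (33.3%), beside 57.9% of the 310078 pairs that can be made from all tested genes. In 7 of the 8 the ratio was lower at LL36, and the exact permutation test of 3 libraries against 3 cannot give a p-value below 0.1. The pair AT5G47700 over AT4G00810 of P1 was the exception.

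The widest gap was in L10a. AT1G08360 over AT2G27530 (PGY1) was 1.88, 1.84 and 1.82 at LL24 and 1.47, 1.38 and 1.44 at LL36. AT2G27530 lay below its paralogue throughout, and the share of AT1G08360 in the family went from 56.5% ± 1.03 to 50.8% ± 1.16. In L7, AT2G01250 over AT2G44120 was 1.63, 1.53 and 1.56 at LL24 and 1.37, 1.23 and 1.23 at LL36. In L10, AT1G14320 over AT1G66580 was 2.99, 3.99 and 3.43 at LL24 and 2.51, 2.23 and 2.73 at LL36, the largest shift of the 24 with a change of -0.47 in the log2 ratio. In this family AT1G66580 was called and AT1G14320 was not. In L7a, AT3G62870 over AT2G47610 was 1.94, 2.13 and 1.85 and then 1.7, 1.54 and 1.59, and in L8, a protein close to the peptide-forming centre, AT2G18020 (EMB2296) over AT4G36130 was 3.91, 4.47 and 4.17 and then 3.7, 3.61 and 3.64. In each of these 5 pairs, picked for the widest gaps, the gene of lower level gained on its paralogue, though AT4G36130 of L8 shares stretches with a gene on the opposite strand. The direction of such shifts was not counted over other pairs of tested genes.

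**Figure D4:**
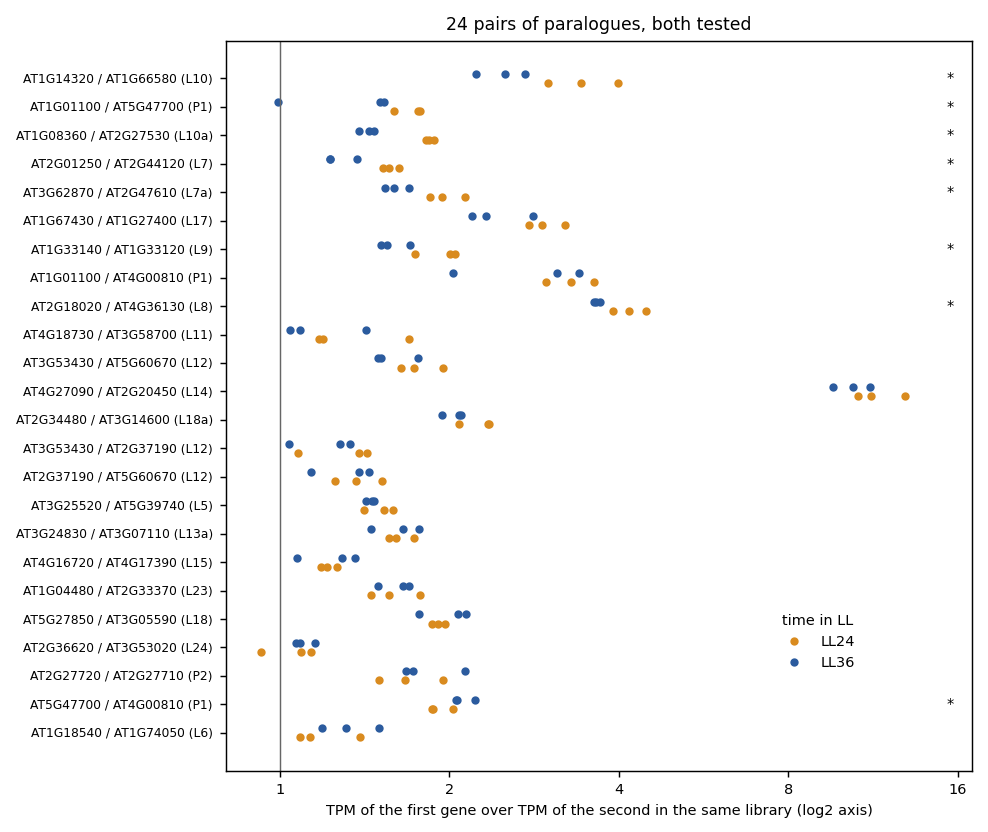
TPM of the first named gene over TPM of the second in the same library (log2 axis) for the 24 pairs of tested paralogues, sorted by the change from LL24 to LL36; each point is 1 library and an asterisk marks the 8 pairs whose time points do not overlap. In 7 of the 8 the LL36 ratios lie to the left, as in L10, where 2.99 to 3.99 at LL24 became 2.23 to 2.73 at LL36.

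In 14 of the 20 families with at least 2 tested genes the gene of highest level had the smallest log2 difference. No such count was made over other tested genes, so whether it is particular to these families was not tested. Over these families the leading genes had a median difference of 0.17 with 6 of 20 called, and the other tested genes had a median of 0.32 with 11 of 22 called, beside 19.9% of all tested genes called higher; the difference between the groups was not tested. The median TPM was 17.8 for the leading genes and 9.75 for the others. The 6 families outside this order were P2, L6, L15, L18, L23 and L24. Summed over listed paralogues, the transcript of a protein was higher in all LL36 than in all LL24 libraries for 17 of 25 proteins. This stands beside 27.9% for single genes over all tested genes, while no such share was computed for sums. For the other 8, namely P0, L3, L4, L7, L10a, L14, L18a and L24, the sums overlapped. In L5, for example, which binds 5S RNA and is made from AT3G25520 (ATL5) and AT5G39740 (RPL5B), the sum was 18.8, 16.9 and 18.1 scaled TPM at LL24 and 22.1, 23.8 and 19.4 at LL36, although neither gene was called. Without scaling of the libraries such sums are not comparable between the time points, so this count holds for the trimmed mean only.

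The 13 genes under a mean TPM of 5 were not tested. They were AT2G40010 and AT3G11250 (P0), AT3G44590 (P2), AT1G61580 (L3), AT3G09630 (L4), AT1G74060 (L6), AT3G13580 (L7), AT1G26910 (L10), AT5G22440 (L10a), AT2G42740 (L11), AT4G13170 and AT5G48760 (L13a) and AT3G16780 (L19). The ratio of their mean scaled TPM at LL36 over LL24 ran from 0.879 to 1.59, and in 5 of the 13 all LL36 libraries lay above those of LL24, beside 16% of the 5844 genes of the table with means from 0.284 up to 5 TPM. AT2G40010, AT1G74060 and AT4G13170 are among those that overlap a gene on the opposite strand. AT1G61580 (RPL3B), the lowest of the set, had 0.208, 0.189 and 0.261 scaled TPM at LL24 and 0.372, 0.281 and 0.398 at LL36. AT1G26910 (RPL10B) of L10, at 0.467, 0.574 and 0.471 and then 0.316, 0.55 and 0.462, was the single gene of the 13 with a ratio below 1, and its time points overlapped.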

How the data were processed

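RIP-seq libraries of 3 biological replicates at LL24 and 3 at LL36 were analysed. Per the study's methods, the authors trimmed 100 nt single-end reads with Sickle, mapped them with STAR 2.5.2a to the AtRTD transcripts (TAIR10 per the labels), quantified them with Salmon 0.8.2 and summed to genes with tximport, leaving out ribosomal RNA, mitochondrial and chloroplast genes; the deposited values are TPM. TPM holds no read counts, so depth per library is unknown and no count model was used, and the number of libraries limits precision. The deposited table also held 6 columns named for Col-2, the wild type whose RNA-seq served the study as the reference for enrichment. They match no sample used here and were left out, so levels in the precipitate were set against no tissue level.

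Libraries were scaled by an unweighted trimmed mean of log ratios (30% of ratios and 5% of abundances trimmed at each end) over the 789 genes with mean TPM of at least 5. Differences, LL36 minus LL24, were tested on log2(scaled TPM + 1) with limma 3.58.1 (lmFit, eBayes with trend, R 4.3.3), two-sided, with Benjamini-Hochberg adjustment over all tested genes. The procedure was tested on simulated data. Among 15 pairs of libraries none was identical. Coordinates, sequences and overlaps come from RefSeq on TAIR10.1, in which all 60 genes and 32811 of 33331 identifiers were found.

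The rule for the genes uses identifiers only, but the genes and the gene lists were proposed with earlier results of these data known, so no test was made over the list. Named with values are, in each family, the gene of highest mean; the 5 largest and 5 smallest differences; all called genes; and the 5 pairs of paralogues with the widest gap between time points. Further genes named as paralogues, overlapping genes or examples were picked after their values were seen.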

Additional observations from a re-analysis of the deposited data

How the results depend on the processing

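In the main setting 18 of the 47 genes were called, beside 19.9% of all tested genes called higher, with a median log2 difference of 0.22. The scaling moved both values most: with TPM as deposited none was called (at an unadjusted p under 0.05 also 0), and the median was -0.07, whereas scaling to a common sum without the 10 genes of highest TPM gave 34 calls with a median of 0.32, and the trimmed mean without ribosomal protein genes 36 calls with 0.33. A pseudocount of 5 lowered the median to 0.18. With no limit on TPM 60 genes entered and 6 were called, beside 4.048% of all 22084 genes then tested called higher. The median was 0.30 there, and with the listed TPM first scaled to a full sum it was 0.28. Leaving out single libraries gave 6 to 15 calls, beside 13.56% to 16.78% of all tested genes called higher, and medians of 0.20 to 0.25. No other setting moved the count of calls by over 1.5 times. Same-numbered replicates of LL24 and LL36 did not deviate together (correlations of 0.148, -0.081 and -0.214), so the numbers were not taken as a pairing. With the replicate number as a block 13 of the 47 were called, beside 16.1% of all tested genes called higher.

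The rise in the share of listed TPM taken by the 60 genes was 0.728 percentage points without the 10 genes of highest TPM, 0.0758 over all listed TPM, and 118.8 in summed scaled TPM; leaving out single libraries gave 0.679 to 0.789. Pairs of paralogues without overlap numbered 8 to 14 when single libraries were left out. With 1 library fewer the time points overlap less readily, and no share over all pairs of tested genes was computed for these settings. These counts therefore cannot be set against the 8 pairs with all libraries, where 57.9% of all pairs of tested genes did not overlap. The 14 were counted without LL24 replicate 3. Without pairs that hold a gene sharing over 10% of its stretches with another gene, 6 of 20 pairs did not overlap with all libraries, beside the same 57.9%, for which no pair was left out. Of the 37 genes that the naming rule picks, 20 had a reversed sign with TPM as deposited: AT1G01100 -0.14, AT1G02780 -0.12, AT1G14320 -0.19, AT1G33140 -0.12, AT1G43170 -0.19, AT1G67430 -0.23, AT2G01250 -0.19, AT2G18020 -0.13, AT2G27530 -0.07, AT2G34480 -0.24, AT2G36620 -0.08, AT3G09200 -0.25, AT3G24830 -0.09, AT3G25520 -0.04, AT3G49010 -0.05, AT3G53430 -0.01, AT3G62870 -0.19, AT4G18730 -0.03, AT4G27090 -0.26 and AT5G27850 -0.07. Without LL36 replicate 3, AT2G34480 was at -0.01, within a range of -0.01 to 0.12 when single libraries were left out. No other of the 37 reversed in any setting. Over all tested members, 28 of 47 were negative with TPM as deposited, and 2 were without LL24 replicate 2, AT3G53020 being 1 of them. The cause of these changes was not tested.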
